A study of Mus musculus with 5 samples.

Results

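Lyz1 and Lyz2, the mouse genes for the 2 c-type lysozymes, were described in single immune cells of the atherosclerotic aortic arch. They are 2 of the 26189 genes of the count tables, and both were found there by symbol. They were chosen with their levels in these same cells already known, so levels, ratios and differences between pools are given as descriptions and none is tested. The series holds 5 samples, of which 1 is the single-cell sample of the arch used here. Its cells came from female mice, 12 weeks old per the labels, of which one pool was labelled wild-type (C57BL/6J) and the other Saa3-/- (allele Saa3tm1.1(KOMP)Vlcg on C57BL/6N). Whether that age is at the start or the end of the diet is not stated. Atherosclerosis had been induced in the mice of both pools, which were fed a Western diet for 18 weeks, so there was no pool without disease induction. How many mice went into each pool is not given in the labels. Live CD45-positive cells were sorted, marked with a sample tag for each pool and loaded on a BD Rhapsody cartridge, which isolates single cells in wells.

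The pool labelled wild-type gave 833 cells and 7289593 molecules, and the pool labelled Saa3-/- gave 823 cells and 5231922 molecules. The median cell held 6415 and 4698 molecules, and no cell number was shared by the pools. Saa3 itself went against the labels, with 1079 molecules (148 per 1000000, CPM) in the pool labelled wild-type and 1268 (242 CPM) in the pool labelled Saa3-/-. Where the deletion lies relative to the counted reads is not given in the sources used here, so pools are named by their labels throughout. Despite the CD45 sort, 166 cells were smooth-muscle-like and 119 were fibroblast-like by their markers. With 1 pool per label, differences between pools have no replicate check, and all intervals are exact 95% intervals that cover counting error only.

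Lysozyme cuts the sugar backbone of bacterial cell wall peptidoglycan. Mice carry a pair of neighbouring genes for it: Lyz2, the M lysozyme of macrophages, monocytes and neutrophils, and Lyz1, the P lysozyme known best from Paneth cells of the small intestine. In phagocytes the enzyme is stored in lysosomes and granules and is also secreted.

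On GRCm38 (GENCODE M21), Lyz2 lies on the minus strand at chr10:117277331-117282321 and Lyz1 on the same strand at chr10:117287797-117292868. A gap of 5475 bases separates the genes, and each has 4 exons and a coding sequence of 148 codons. The coding sequences differ at 22 of 447 bases (95.1% identical), and the 3′ UTRs are 95.6% identical. Coding exon 2 shows how close the genes are, with 6 differing bases among 165. The sequences below run 5′ to 3′ along the minus strand, from chr10:117291029-117291193 (Lyz1) and chr10:117280641-117280805 (Lyz2), and capitals mark the bases that differ.
Lyz1 exon 2: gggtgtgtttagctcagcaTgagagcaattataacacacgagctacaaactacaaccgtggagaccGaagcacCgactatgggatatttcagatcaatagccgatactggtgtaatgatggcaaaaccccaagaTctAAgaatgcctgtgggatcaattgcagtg
Lyz2 exon 2: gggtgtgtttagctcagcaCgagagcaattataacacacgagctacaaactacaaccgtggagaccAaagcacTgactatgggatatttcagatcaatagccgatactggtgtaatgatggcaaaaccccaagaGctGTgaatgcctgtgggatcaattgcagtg
Of all 50-base stretches, 16.1% of those in the Lyz1 transcript also occur in Lyz2, and 15.4% of those in the Lyz2 transcript occur in Lyz1. None occurs in an annotated transcript of any other gene. A read that falls wholly within a shared stretch cannot be assigned from its bases, and how such reads were counted is not stated in the headers, so the split between Lyz1 and Lyz2 carries that uncertainty.

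Upstream of the genes the sequences are less alike. The windows from 250 to 51 bases before the RefSeq start (GRCm38.p6, minus strand, chr10:117292919-117293118 for Lyz1 and chr10:117282323-117282522 for Lyz2) align with 150 identical positions among 202, or 74.3%. They are shown because the genes' levels are compared below, and capitals again mark differences.
Lyz1 upstream: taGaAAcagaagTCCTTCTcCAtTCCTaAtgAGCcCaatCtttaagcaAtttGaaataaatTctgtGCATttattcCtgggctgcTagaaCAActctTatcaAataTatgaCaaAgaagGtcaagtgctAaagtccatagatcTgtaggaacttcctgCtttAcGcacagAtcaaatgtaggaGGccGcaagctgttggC
Lyz2 upstream: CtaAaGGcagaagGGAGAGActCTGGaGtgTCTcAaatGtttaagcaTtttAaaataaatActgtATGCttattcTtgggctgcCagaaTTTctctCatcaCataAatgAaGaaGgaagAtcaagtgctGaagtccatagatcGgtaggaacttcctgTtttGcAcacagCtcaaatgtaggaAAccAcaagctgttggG
The windows were searched on both strands for 3 motifs. The C/EBP core TTGCNNAA had 1 match in the Lyz1 window and 0 in that of Lyz2, and 8.11% of 32851 promoter windows of the same length hold it. The TATA box TATAAA (9.14% of windows) and GAGGAA, the PU.1 form of the ETS family core (18.8%), matched neither window. Of the ETS family core, only this form was searched for. The windows stop short of the RefSeq start, so a missing match says nothing about a TATA box between window and start. For Lyz2 the annotations differ, and its GENCODE start (chr10:117282321) lies next to the edge of its window (chr10:117282323). Against that start the Lyz2 window does reach the region of a TATA box, and held no TATAAA. Which start these cells use was not tested.

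Lyz2 was among the most abundant transcripts of the sample. It had 64214 molecules over all kept cells and ranked 10 among all genes, while Lyz1 had 4104 and ranked 413. Lyz1 thus made up 6.01% of lysozyme molecules. Dividing each gene's molecules by its transcript length (1263 bases for Lyz1, 1316 for Lyz2) moved this share by at most 0.588 percentage points in any cell type with at least 100 lysozyme molecules, so shares below are of molecules. The share was 7.54% in the pool labelled wild-type (3752 Lyz1 and 45983 Lyz2 molecules) and 1.89% in the pool labelled Saa3-/- (352 and 18231).

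Cells were grouped by clustering without Lyz1, Lyz2 and Saa3, and named from marker genes. Lyz2 was highest in monocyte-like cells, at 16116 CPM in the pool labelled wild-type and 10860 CPM in the pool labelled Saa3-/-. Macrophage-like cells followed with 12048 and 9228 CPM. With a finer clustering (Leiden resolution 2) this order was not distinguishable in the pool labelled Saa3-/-, at 10860 CPM (10426 to 11306) for monocyte-like and 10898 CPM (10690 to 11109) for macrophage-like cells. The levels of monocyte-like cells were not uniform, with 16762 and 14160 CPM in the Chil3 and Ly6c2 cluster and 8753 and 5503 CPM in the Treml4 and Cd300e cluster. Dendritic-like cells had 4548 and 1899 CPM. Neutrophil-like cells had 3828 CPM (3062 to 4728, 8 cells) and 2494 CPM (2063 to 2989, 15 cells), which in the pool labelled wild-type overlaps the interval of dendritic-like cells. The other named types, where each pool had 10 cells or more, lay between 466 and 1323 CPM. Every macrophage-like cell of the pool labelled wild-type and 156 of 157 in the pool labelled Saa3-/- held Lyz2.

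Lyz1 followed a narrower pattern. It reached 3300 CPM in monocyte-like cells of the pool labelled wild-type, against 73.4 CPM in those of the pool labelled Saa3-/-, but 1 cell held 66.2% of the molecules behind the former. With a coarser clustering or a stricter cell filter, 63 and 62 cells were named monocyte-like in place of 93. Lyz1 was then at 168 and 171 CPM in the pool labelled wild-type and 73.3 CPM in the pool labelled Saa3-/- under both. Cells were clustered and named anew each time, and the filter left 1610 of 1656 cells. The cell with most Lyz1 passes that filter, with 5723 genes and 3.63% mt- molecules. In the main clustering, macrophage-like cells had 780 and 149 CPM of Lyz1, and dendritic-like cells 114 and 44.2 CPM. Neutrophil-like cells held 2 Lyz1 molecules in each pool, too few to place them. The plot of levels by cell type shows both genes.

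**Figure D1:**
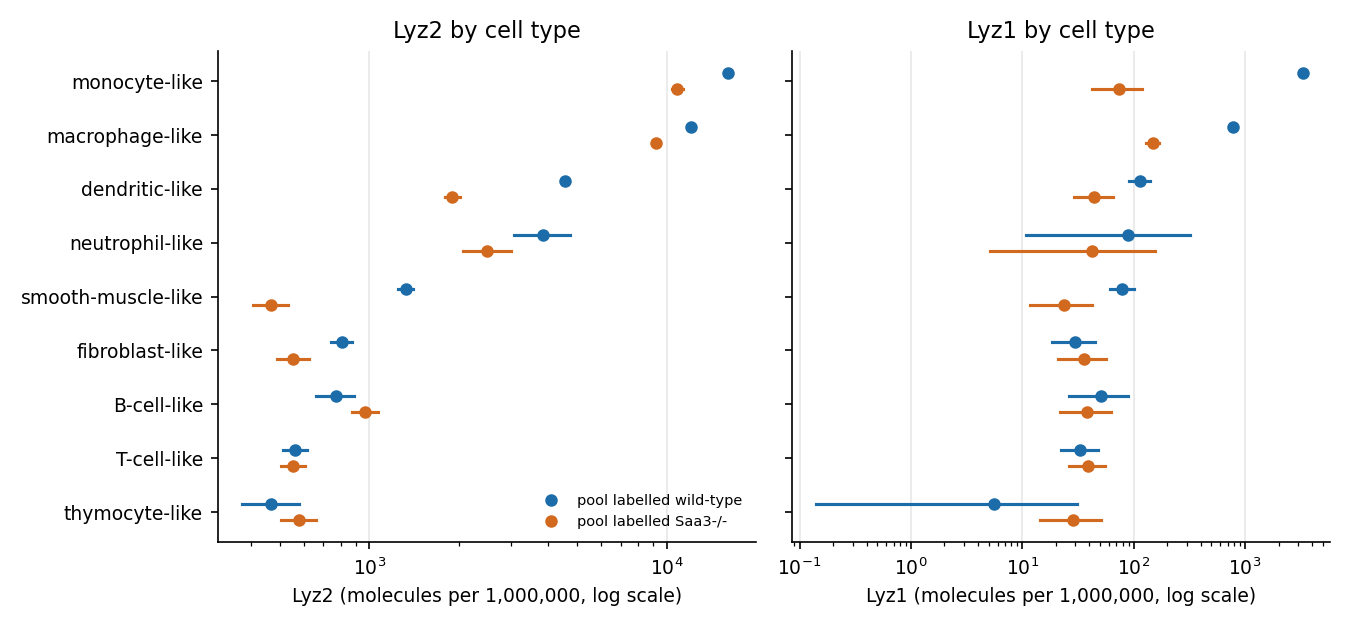
Lyz2 (left) and Lyz1 (right) in molecules per 1,000,000 on log axes, by cell type and pool; points are sums over cells and lines are exact Poisson 95% intervals. Lyz2 is highest in monocyte-like and macrophage-like cells of both pools, whereas Lyz1 reaches 3300 and 780 in those cells of the pool labelled wild-type and 73.4 and 149 in those of the other.

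Lymphocytes, which are not known to make lysozyme, were taken as the background that free RNA can give in single-cell captures. T-cell-like, B-cell-like, NK-cell-like and thymocyte-like cells together held 584 CPM of Lyz2 in the pool labelled wild-type (244 cells) and 665 CPM in the pool labelled Saa3-/- (381 cells). Lyz1 was at 32.1 CPM (23.2 to 43.4) and 35.4 CPM (26.9 to 45.7). The median lymphocyte held 2 Lyz2 molecules in each pool, and 3 and 5 lymphocytes held over 20. A Lyz2 molecule was found in 87.7% and 87.1% of lymphocytes, at median depths of 4366.5 and 3765 molecules. After thinning every cell to 2000 molecules these shares were 69.0% and 67.3%, with 5 and 14 shallower cells left out, against 99.1% and 99.4% of macrophage-like cells. For Lyz1 the thinned shares were 7.53% and 7.63% of lymphocytes, and 25.8% and 13.5% of macrophage-like cells.

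The mixture of the genes was compared between lymphocytes and myeloid cells of the same pool. In lymphocytes the Lyz1 share was 5.22% (3.79 to 6.99) in the pool labelled wild-type and 5.05% (3.86 to 6.48) in the pool labelled Saa3-/-. In macrophage-like and monocyte-like cells together it was 8.20% and 1.45%, but a single cell held 934 of the 3506 Lyz1 molecules behind the 8.20%. In macrophage-like cells alone it was 6.08% (5.83 to 6.34), within the interval of lymphocytes, and 1.59% (1.38 to 1.82), below it. The lymphocyte share was therefore alike in both pools, while the myeloid shares differed. Macrophage-like and monocyte-like cells held 58133 lysozyme molecules, against 1954 in lymphocytes, so they mostly set the 6.01% of the whole sample. Nothing is read from that value lying between their shares, and the source of the lymphocyte molecules was not tested. All these cells were taken as 1 sample per the labels. Fibroblast-like cells had 3.55% and 6.03%, and smooth-muscle-like cells 5.64% and 4.80%, with intervals that overlap those of lymphocytes.

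Among myeloid clusters, the Lyz1 share ran from below 1% to 17.6%. The Chil3- and Ly6c2-high monocyte-like cluster, with genes of classical monocytes, had 17.6% (1410 of 7998 molecules) in the pool labelled wild-type and 0.676% (13 of 1922) in the pool labelled Saa3-/-, and 1 cell held 934 of those 1410 molecules. The largest macrophage-like cluster, led by Adgre1 and Clec4a1, had 8.62% and 3.19%. The macrophage-like cluster with Lyve1, Folr2 and Cd163, genes of resident macrophages, had 3.82% and 0.761%. In the cluster with Gpnmb, Trem2 and Spp1, genes of lipid-laden macrophages, it was 0.498% and 0.394%. The Treml4- and Cd300e-high monocyte-like cluster held only 1 and 3 Lyz1 molecules. Lyz1 itself is among the genes by which the first and second of these clusters stand out from the rest.

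Lyz1 in the Gpnmb and Trem2 cluster, 39.3 and 34.9 CPM, was at the level of lymphocytes in CPM. By cell, with the pools together, a Lyz1 molecule was found in 35.4% of this cluster and 13.1% of lymphocytes. Their median depths were 10454 and 4024 molecules. Whether the Lyz1 of this cluster is background was not tested. Lyz2 there was 7864 and 8823 CPM, against 584 and 665 CPM in lymphocytes, so in CPM Lyz2 but not Lyz1 was above the level of lymphocytes. The Gpnmb and Trem2 cluster made up 34 of 222 macrophage-like cells in the pool labelled wild-type and 45 of 157 in the pool labelled Saa3-/-.

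**Figure D2:**
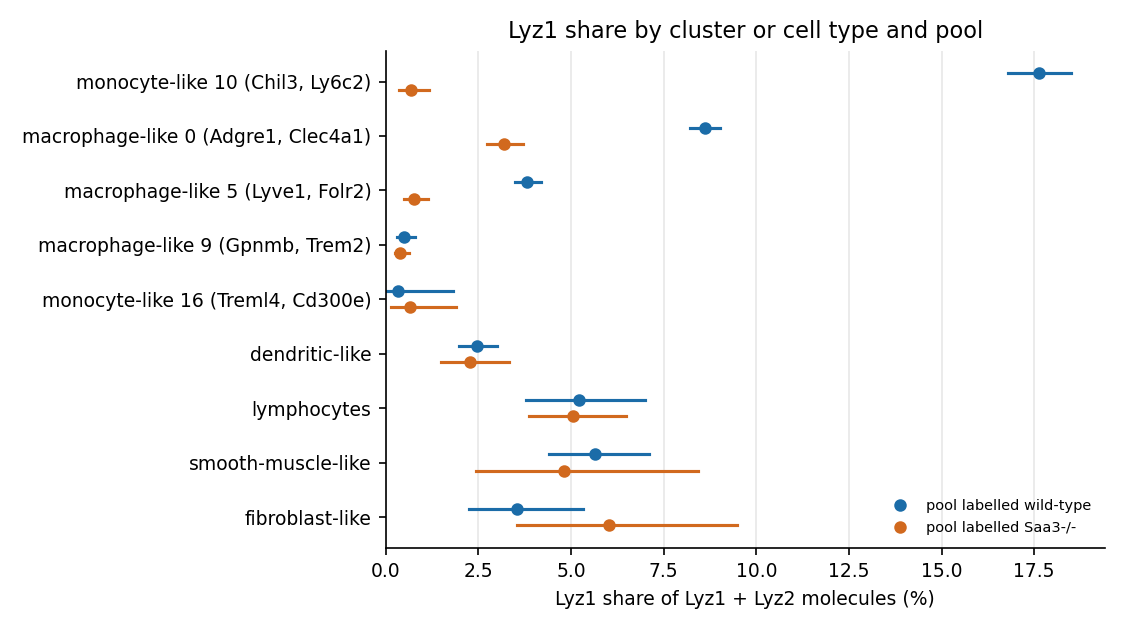
Lyz1 share of Lyz1 plus Lyz2 molecules (percent) by myeloid cluster or cell type and pool, with exact binomial 95% intervals as lines. The intervals of the pools do not overlap in the Adgre1 and Lyve1 clusters, nor in the Chil3 and Ly6c2 cluster (17.6% and 0.676%), where 5 Lyz1-rich cells held 98.6% of the Lyz1 of the pool labelled wild-type; they overlap in the other rows.

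Lyz1 sat in few cells. Among the 272 macrophage-like and monocyte-like cells of the pool labelled wild-type, 5 cells reached 50% of the Lyz1 molecules, whereas 53 cells were needed for 50% of the Lyz2 molecules. In the pool labelled Saa3-/- the numbers were 3 of 200 cells for Lyz1 and 39 for Lyz2. A single monocyte-like cell of the pool labelled wild-type held 934 Lyz1 and 540 Lyz2 molecules among 31848, and its Lyz1 alone was 22.8% of all Lyz1 of the sample. The next cells, both macrophage-like and of the same pool, held 314 and 210. At least 10 Lyz1 molecules were found in 37 cells of the pool labelled wild-type and 4 cells of the pool labelled Saa3-/-.

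**Figure D3:**
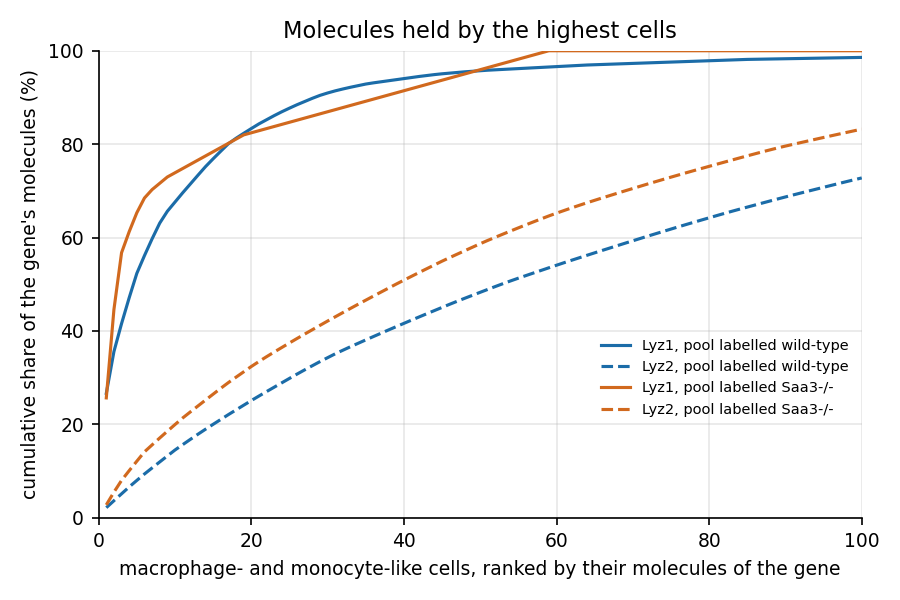
Cumulative share of Lyz1 (solid) and Lyz2 (dashed) molecules (percent) over the 100 macrophage- and monocyte-like cells of each pool with most molecules of the gene. The Lyz1 curves pass 50% at 5 and 3 cells, the Lyz2 curves at 53 and 39.

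Per cell, the Lyz1 share was taken where a macrophage-like or monocyte-like cell had at least 20 lysozyme molecules, which 403 cells did. The median share was 0.592% in the pool labelled wild-type (241 cells) and 0% in the pool labelled Saa3-/- (162 cells), while the highest were 65.2% and 37.5%. The variance of the share between cells was 9.57 times what counting alone gives at a single common share of both pools, 6.48%. Taken at each group's own share, this ratio was 13.4 in the pool labelled wild-type and 6.16 in the pool labelled Saa3-/-. By cluster it ran from 3.07 (Treml4 and Cd300e) to 25.7 (Lyve1) in the former. The 3.07 rests on 1 Lyz1 molecule in 6 cells, too few to show a spread. In the latter it was 8.05 in the Adgre1 cluster and 1.72 in the Chil3 and Ly6c2 cluster. In the other clusters of that pool it lay between 0.677 and 0.859, with no excess over counting. The limit of 20 molecules keeps cells by what is mostly Lyz2, so the spread of Lyz2 is not read from them. Over all 472 macrophage-like and monocyte-like cells, 471 held at least 1 Lyz2 molecule (median 73.5) and 209 at least 1 Lyz1 molecule (median 0).

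A cell was called Lyz1-rich at a share of at least 10%, a limit chosen after the values were seen, and 4 cells lay between 8% and 12%. There were 32 Lyz1-rich cells among 241 in the pool labelled wild-type and 4 among 162 in the pool labelled Saa3-/-. Together these 36 cells held 89.1% of the Lyz1 molecules of the 403 cells. In the pool labelled wild-type, 20 of 102 cells of the Adgre1 cluster were Lyz1-rich, 7 of 68 of the Lyve1 cluster and 5 of 38 of the Chil3 and Ly6c2 cluster. In the pool labelled Saa3-/- all 4 were in the Adgre1 cluster, which had 55 cells. The Gpnmb and Trem2 cluster had 0 among 27 and 38 cells.

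**Figure D4:**
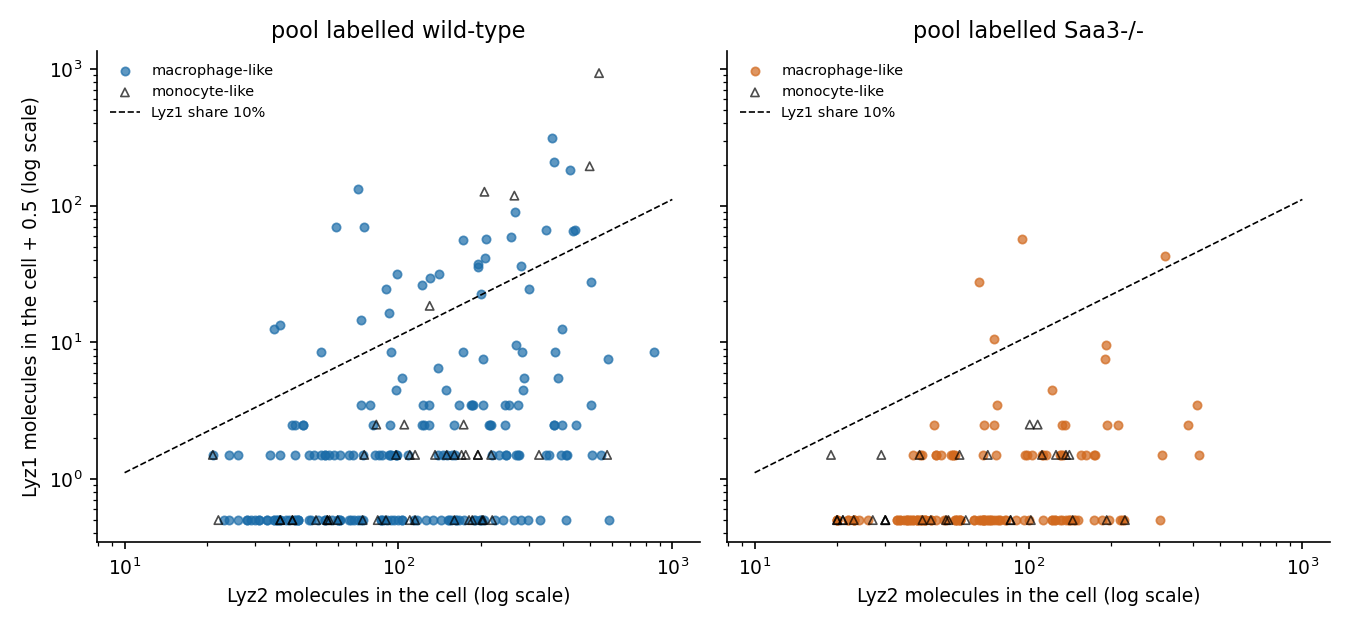
Lyz1 molecules plus 0.5 against Lyz2 molecules of each of the 403 macrophage-like and monocyte-like cells with at least 20 lysozyme molecules, on log axes, by pool; the dashed line marks a Lyz1 share of 10%. Above the line are 32 cells of the pool labelled wild-type and 4 of the pool labelled Saa3-/-, and most others lie at 0 or 1 Lyz1 molecule over the whole range of Lyz2.

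Lyz2 was also abundant in Lyz1-rich cells. Those of the pool labelled wild-type held 15210 CPM of Lyz2, against 12981 CPM in the other cells, and 7028 against 131 CPM of Lyz1. Within its clusters the Lyz2 values were closer. They were 15008 and 14624 CPM in the Adgre1 cluster, 13389 and 11790 CPM in the Lyve1 cluster, and 17339 and 17779 CPM in the Chil3 and Ly6c2 cluster, where the Lyz1-rich cells were the lower. The 4 Lyz1-rich cells of the pool labelled Saa3-/- held 17444 CPM of Lyz2, against 10227 CPM in the others.

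Depth moved with these groups in no single direction. The median Lyz1-rich cell of the pool labelled wild-type held 11227 molecules, against 9267 in the others, but 6804 against 12498 within its Lyve1 cluster. The medians in the pool labelled Saa3-/- were 5816 and 6713. The part of depth in these values was not tested.

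Other genes also differed between Lyz1-rich and other cells, given as medians over cells of summed levels. These medians take all clusters together, while Lyz1-rich cells lay only in the Adgre1, Lyve1 and Chil3 and Ly6c2 clusters. Differences between clusters therefore enter the values, which were not split by cluster. In the pool labelled wild-type the 8 genes of resident macrophages were at 1789 CPM in Lyz1-rich cells and 987 CPM in the others, and the 7 of classical monocytes at 704 and 436 CPM. The 8 genes of lipid-laden macrophages had 1740 and 2059 CPM. Markers of other cell types were at 96.4 and 79.1 CPM for neutrophils, 226 and 239 CPM for T cells and 711 and 640 CPM for smooth muscle. In the 4 Lyz1-rich cells of the pool labelled Saa3-/- the resident genes were at 1902 CPM, against 723 CPM in the others, and the classical monocyte genes at 261 CPM, against 490 CPM. Smooth muscle markers were at 2589 CPM in those 4 cells, against 649 CPM, and their part in these values was not tested.

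Across the 403 cells no gene followed the Lyz1 share closely. Among 5498 genes the highest Spearman rho was 0.33, for Cfp, which encodes properdin, a stabiliser of the alternative complement pathway, and the lowest was -0.17, for Tgfbi. The share's rho with the cell's depth was 0.25, and all counts come from the same library, so such weak values name no partner of Lyz1.

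Between the pools, macrophage-like cells had 2095 Lyz1 molecules in the pool labelled wild-type and 206 in the pool labelled Saa3-/-. The log2 ratio of their levels (Saa3-/- label over wild-type label) was -2.39 (-2.60 to -2.18). Among the 7899 genes with at least 50 molecules in these cells, 1.13% were lower by a log2 ratio of at least 1 and 2.13% passed it in either direction, and 0.152% had a lower ratio than Lyz1. The rule that chose the genes used this contrast, so nothing is read from Lyz1 being among them. Lyz2 had 32374 and 12775 molecules and a log2 ratio of -0.38 (-0.41 to -0.36), within the fold limit, with 9.76% of genes lower. The median gene was at 0.045.

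**Figure D5:**
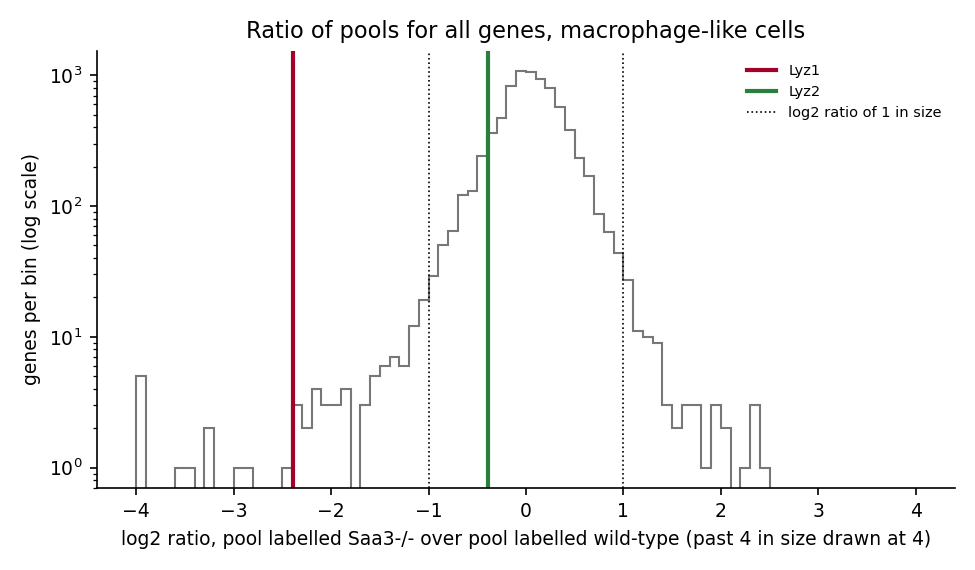
Number of genes (log axis) by log2 ratio between pools (Saa3-/- label over wild-type label) in macrophage-like cells, over 7899 genes, with values past 4 in size drawn at 4. Lyz1 at -2.39 lies in the sparse left tail and Lyz2 at -0.38 within the bulk, and dotted lines mark a ratio of 1 in size.

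The difference in Lyz1 was present within 2 of the 3 macrophage-like clusters. It was -2.07 in the Adgre1 cluster (1326 and 315 CPM) and -2.64 in the Lyve1 cluster (457 and 71.9 CPM). In the Gpnmb and Trem2 cluster, where Lyz1 was at the level of lymphocytes in CPM, it was -0.17 (-1.18 to 0.84). Lyz2 was at -0.56, -0.30 and 0.17 in the same clusters. Without the Lyz1-rich cells, the Lyz1 ratio of macrophage-like cells was -1.34, with shares of 1.12% and 0.569%. Without the 5 macrophage-like cells of each pool with most Lyz1 it was -3.30. Those left out of the pool labelled Saa3-/- held 145 of the 206 Lyz1 molecules of its macrophage-like cells. In the pool labelled wild-type they held 314, 210, 183, 133 and 89 of 2095, so a smaller part was left out there.

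Monocyte-like cells rested on fewer cells still. Lyz1 had 1411 and 16 molecules there and a log2 ratio of -5.45, in a comparison where 3.70% of 2486 genes were lower by at least 1. Without the 5 cells with most lysozyme molecules of each pool, the Lyz1 share was 0.785% (0.556 to 1.08) in the pool labelled wild-type, down from 17.0%, and 0.910% (0.498 to 1.52) in the pool labelled Saa3-/-, up from 0.672%, so the direction between the pools turned and the intervals overlap. Under the stricter filter and the coarser clustering the shares were 0.843% and 0.832% in the pool labelled wild-type and 0.619% in the pool labelled Saa3-/-. Lyz2 was at -0.57 (6890 and 2366 molecules).

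In dendritic-like cells both genes were lower in the pool labelled Saa3-/-, Lyz1 at -1.35 (89 and 26 molecules) and Lyz2 at -1.26 (3546 and 1118), where 2.30% of 4521 genes were lower by at least 1. One cell held 50 of the 89 Lyz1 molecules. Lyz1 was lower in the Clec9a and Xcr1 cluster alone, at 163 CPM (79 molecules, 36 cells) and 32.5 CPM (7 molecules, 22 cells). The cell with 50 molecules lay in this cluster and held 63.3% of those 79, and the difference without it was not computed. In the Cd209a and Ccr7 cluster it was 33.8 CPM (10 molecules, 33 cells) and 50.8 CPM (19 molecules, 50 cells). Lyz2 was lower in both clusters, at 4567 and 1307 CPM and at 4517 and 2240 CPM. In lymphocytes, the background, Lyz1 was at 0.13 (-0.46 to 0.75) and Lyz2 at 0.19 (0.05 to 0.32), and 2.35% of 7707 genes passed the limit in either direction. Without lymphocytes with over 20 Lyz2 molecules, Lyz2 was at 542 CPM (502 to 585) and 554 CPM (518 to 591), with intervals that overlap. B-cell-like cells, at 770 and 966 CPM of Lyz2, made up 48 of 244 and 108 of 381 lymphocytes, and T-cell-like cells were at 561 and 553 CPM.

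Related genes were followed in macrophage-like cells, where 1.00% of genes were higher in the pool labelled Saa3-/- and 1.13% lower by at least 1. The 8 other members of the lysozyme family in the tables, such as Lyzl4 and Lalba, had 9 molecules in all, so Lyz1 and Lyz2 were the lysozymes detected. Of 14 antimicrobial granule and secreted proteins, 7 had at least 20 molecules, with 2 higher, 1 lower and a median of 0.63. Slpi, a secreted inhibitor of leukocyte proteases, was at 159 CPM in the pool labelled wild-type and 15.9 CPM in the pool labelled Saa3-/- (log2 ratio -3.29). The 2 higher were S100a8 and S100a9, subunits of calprotectin, at 1.73 and 1.99. Few molecules lay behind these ratios, 25 and 43 for S100a8 and 32 and 66 for S100a9. The whole sample held 1124 and 1662 molecules of these genes, and the part of free RNA in the macrophage-like values was not tested. Chil3, a chitinase-like protein, was at 0.79. Camp, Ngp, Elane and Ctsg, granule genes of neutrophils and their precursors, had 0 molecules in macrophage-like cells of both pools.

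Genes that sense peptidoglycan fragments showed none past the limit among 10 measured of 11, with a median of -0.06. Tlr2, a surface receptor, had 354 and 334 CPM, Slc15a3, a lysosomal peptide transporter, 264 and 334 CPM, and Nlrp3, an inflammasome sensor, 274 and 267 CPM. Of 10 myeloid transcription factors, 9 were measured and none passed. Spi1, which encodes PU.1, was at -0.14 and Cebpb at -0.28. The 11 lysosomal glycosidases had a median of -0.03 and the 11 genes of the secretory lysosome and phagosome 0.53, with none past the limit. Ctsb and Ctss, lysosomal proteases of the latter list, were at 0.54 and 0.63.

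Of the 8 lipid-laden macrophage genes, 3 were higher in the pool labelled Saa3-/- and none lower, with a median of 0.98. These were Gpnmb, a lysosomal glycoprotein, at 2.39, Fabp5, a fatty acid carrier, at 2.43 and Spp1, which encodes osteopontin, at 1.30. Lgals3, which encodes galectin-3 and had most molecules of the list, lay just inside the limit at 1668 and 3333 CPM (0.999). The 8 resident macrophage genes and 7 classical monocyte genes had medians of -0.34 and 0.40 with none past the limit. The most abundant of them were F13a1 (-0.37) and Cbr2 (-0.52), and Ccr2 (0.40) and Fn1 (0.49). The Gpnmb and Trem2 cluster was also the larger share of macrophage-like cells in the pool labelled Saa3-/-, as given above, and the Lyz1 ratio within each cluster is given beside the pooled one.

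Over the 18 clusters with at least 20 cells, the genes most like Lyz2 among 8054 were Csf1r (Pearson r of log levels 0.96), the receptor for the macrophage growth factor, Apobec1, Fcer1g, Mpeg1 and Ccl9. For Lyz1 they were Aoah (0.84), an enzyme that inactivates lipopolysaccharide, Retnla, Ccl9, Lyz2 (0.75) and Mrc1. Clusters share the library and differ in depth, so these values are a description. By Spearman rho, 2 of the 5 genes for Lyz2 and 1 of the 5 for Lyz1 stayed among the 5 closest.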

How the data were processed

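The authors' deposited tables, 1 per sample tag, give counts of molecules per cell and gene from the BD Rhapsody WTA pipeline 1.11.1 on GRCm38 with GENCODE M19, intronic reads included, per the file headers. A deposited table of other type lists the tag call of each of 2401 cells, and all 1743 cells of the count tables matched it. The submitters' processing notes name R 4.3.1 and Seurat 4.3.0. Which tag is which genotype is given by the tables' names only. The 4 bone-marrow macrophage samples were not analysed here, and the agent that induced disease is not reported here.

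Cells with over 25% of molecules from mt- genes were removed (87 of 1743). The others were clustered with scanpy 1.11.5 and leidenalg 0.10.2 (2000 variable genes, 30 components, 15 neighbours, resolution 1), leaving out Lyz1, Lyz2 and Saa3, which gave 22 clusters. A cluster took the type with the highest mean marker z-score, at least 3 markers found in 25% of its cells and 1 marker among its top 10 genes. The last condition was added after the clusters were seen, and left 57 cells unnamed. No doublets were removed. Scrublet (with scikit-image 0.26.0) called 6 and 4 cells, which were left out in an alternative.

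CPM are molecules of a gene per 1000000 molecules of the same cells. Intervals are exact Poisson or Clopper-Pearson intervals (scipy 1.17.1). Ratios of pools use a pseudocount of 0.5 molecule. With 1 pool per label, no test was run. On simulated counts for 7886 genes, all 188 measured genes changed 4-fold in the macrophage-like comparison passed the log2 limit of 1, as did 0.325% of unchanged genes. These counts held Poisson noise alone, with no spread between cells, mice or pools. They therefore bear on counting error only and not on how reliable the real comparison is. TMM (edgeR) and DESeq2 size factors were alternatives only. Sequences are from GENCODE M21 transcripts and RefSeq promoters, and protein identity was not run. Genes named are Lyz1 and Lyz2, the 5 most similar in pattern, the genes with the highest and lowest rho with the Lyz1 share, and 2 to 4 members of each list, the lysosomal glycosidases excepted, with most molecules in macrophage-like cells. Fabp5 and the 4 granule genes at 0 were chosen after their values were seen. Members and lists were chosen with earlier results of these data known.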

Additional observations from a re-analysis of the deposited data

Results flagged for a closer look

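The 87 cells removed for their mitochondrial share enter no comparison but held lysozyme molecules. They had 7 Lyz1 molecules (37.4 CPM) and 138 Lyz2 molecules (737 CPM) among 187166, both above the 3 molecules that a count of 0 allows. These levels are near those of lymphocytes.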

How the results depend on the processing

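No paired analysis was possible because the arch has 1 sample and its pools carry no replicate numbers. Lyz1 stayed lower in macrophage-like cells of the pool labelled Saa3-/- in all 14 alternatives, with log2 ratios from -3.30 to -1.34, and Lyz2 from -0.43 to -0.26. With all deposited cells, 217 cells were macrophage-like in place of 379, and the ratios were -2.75 (Lyz1) and -0.26 (Lyz2) with a Lyz1 share of 1.1105% in the pool labelled Saa3-/-. At least 500 genes and at most 15% mt- molecules left 1610 cells, of which 206 were named macrophage-like after clustering anew. The ratios were then -2.70 and -0.27, with shares of 5.81% in the pool labelled wild-type and 1.13% in the other. At Leiden resolution 0.5 they were -2.98 and -0.42 with 8.78% in the pool labelled wild-type, and at resolution 2 the shares were 6.92% and 1.82%. Weighing each cell the same gave -2.13 and -0.32 and mean shares of 4.32% and 1.19%. TMM and DESeq2 scaling gave -0.43 and -0.42 for Lyz2. Without the 5 cells with most lysozyme molecules the share in the pool labelled wild-type was 5.08%. Of alternatives chosen after seeing the data, leaving out the 5 cells of each pool with most Lyz1 gave -3.30 with shares of 3.64% and 0.504%, and leaving out Lyz1-rich cells gave -1.34 with 1.12% and 0.569%. The Lyz1 share of lymphocytes stayed within its counting interval in every alternative, from 4.18% to 5.38% and from 4.68% to 6.05%. Lyz1-rich cells, 13.3% and 2.47% of cells in the pools labelled wild-type and Saa3-/-, were 14.9% and 3.09% at a limit of 5% and 7.05% and 1.23% at a limit of 20%. Without a filter on low counts, 21.3% of genes passed the log2 limit in macrophage-like cells, against 2.13%. Of 268 values, 202 stayed within their interval or limit and 66 moved beyond it. A reversal was counted only for the Lyz1 log2 ratio of macrophage-like cells, where 0 of 14 values reversed. Turns in other results, such as the Lyz1 share of monocyte-like cells given above, were not counted as reversals. Where a cause of a shift is not in how the alternative was built, the cause was not tested. Depth limits Lyz1 in types with few molecules, such as neutrophil-like cells.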

Other observations

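Cells outside the myeloid types also included some with high lysozyme counts. In the pool labelled wild-type, smooth-muscle-like cells held up to 333 Lyz2 and 31 Lyz1 molecules in a cell, against medians of 3 and 0. The cells with most accounted for 29.3% of the 1137 Lyz2 and 45.6% of the 68 Lyz1 molecules of that type. B-cell-like cells held up to 56 and 72 Lyz2 molecules in the pools labelled wild-type and Saa3-/-, against a median of 2 in each. Type 2 innate lymphoid-like cells held 1230 CPM of Lyz2 in 22 cells and 662 CPM in 12 cells.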
